A study of Mus musculus with 6 samples.

Results

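The probes for mmu-miR-690, mmu-miR-709 and mmu-miR-805 make up 3 of the 599 mature mouse miRNA probes on an array of mouse kidney cortex RNA. They were chosen by their brightness on these same arrays and because the standing of their targets as miRNAs has been questioned, so their levels are given as a description and only the comparisons between groups were tested. The treated group held 3 C57Bl6 mice on a diet with 0.05% sodium and with 0.5 g/L captopril, a blocker of angiotensin converting enzyme, in the drinking water for 10 days. The control group held 3 untreated C57Bl6 mice, whose diet is not described further. Each sample came from an individual mouse. Treated replicate 1 was a female aged 5 months, control replicate 3 a female aged 3.5 months, and the remaining mice males aged 3.5 months. RNA of treated replicates 1 and 3 and of control replicate 2 was stained with Cy5, and RNA of treated replicate 2 and of control replicates 1 and 3 with Cy3, so that dye and treatment overlapped in part. Low sodium with captopril is a regimen known to raise renin expression in the kidney, and the study asked which miRNAs of the cortex differ under it.

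A miRNA is a short RNA cut by the enzymes Drosha and Dicer from a hairpin precursor, and it guides Argonaute proteins to messenger RNAs that pair with its seed, bases 2 to 8. Short fragments of transfer RNA, ribosomal RNA, repeat transcripts or mitochondrial RNA can be cloned and named as miRNAs as well, and an array that tails and stains all small RNA measures them in the same way. MiR-690 has been described in mouse macrophages, whose exosomes carry it to other cells and improve insulin sensitivity. MiR-709, abundant in many mouse tissues and described in mouse cells as a nuclear miRNA that pairs with the primary transcript of miR-15a and miR-16, has a sequence close to rodent B1 repeats. MiR-805 has a sequence that is known to match the mouse mitochondrial genome.

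The target sequences of the 3 probes, as the deposited spot tables give them, are shown because the question about these probes rests on where else such sequences occur. Capitals mark the seed.
mmu-miR-690: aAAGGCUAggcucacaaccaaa
mmu-miR-709: gGAGGCAGaggcaggagga
mmu-miR-805: gAAUUGAUcaggacauaggg

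None of the 3 seeds was shared with another of the 599 probes, and the longest run that any of them had in common with another target was 8 bases, between miR-709 and miR-691. The targets are 22 bases (miR-690), 19 bases (miR-709) and 20 bases (miR-805) long. The target of miR-709 had a GC content of 68.4%, the 20th highest of the 599 (median 45.5%), while those of miR-690 (45.5%) and miR-805 (45.0%) lay near the median. RefSeq (GRCm38.p6) places the gene of miR-690 at chr16:28599935-28600043 on the minus strand, within the span of Fgf12, a fibroblast growth factor homologue of neurons, and the gene of miR-709 within the span of Rfx1, a transcription factor. The RefSeq sequences used here held no mature entry for miR-709 or miR-805, so their array targets were not compared with one. The RefSeq mature sequence of miR-690 was identical to the array target. Its hairpin is shown with the mature part in capitals, to place it at bases 83 to 104 of 109.
Mir690 hairpin: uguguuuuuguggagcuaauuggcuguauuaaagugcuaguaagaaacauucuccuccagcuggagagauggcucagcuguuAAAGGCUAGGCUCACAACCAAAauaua

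To see how widely each sequence recurs, every 12-base run of each target was counted in 32851 RefSeq promoter windows of 300 bases, on both strands. The most widespread run of miR-690, ggcucacaacca, lay in 100 windows (0.304%), the 5th highest count among the 599 targets, and the most widespread run of miR-709, aggcagaggcag, in 70 windows (0.213%), the 10th highest. The corresponding count for miR-805 was 3 windows (0.00913%), below the median target, at 4 windows (0.0122%). A run of the miR-690 hairpin outside the mature part, gagauggcucag, lay in 133 windows (0.405%). As background, ggcucacaacca and gagauggcucag are letters of the rodent B2 repeat and aggcagaggcag of the B1 repeat. Matched over 15 or more bases, miR-709 recurred in 19 windows, the 8th highest count of the 599, miR-690 in 3 and miR-805 in 0, as for 77.5% of all targets. The counts describe letters in promoter windows and not transcripts in the cortex.

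All 3 probes lay above background in all 6 samples, where above background means a mean log2 intensity more than 3 SD over the mean of empty spots. Of the 599 probes, 117 did so in all 6 samples, 197 in at least 3 samples, which made up the tested set, and 354 in none. Of 7 miRNAs fixed as markers of renal cortex, 6 lay above background in all samples, and miR-204 in 3 of 6. Of 8 markers of other tissues or cells, miR-124 of brain, miR-144 of red cells and miR-142-3p of leukocytes lay above background in no sample, miR-122 of liver in 3, miR-1 of striated muscle in 2 and miR-133a of striated muscle in 1, and miR-451 of red cells and miR-150 of lymphocytes in all 6. In bulk cortex, fewer cells that hold an RNA and less of it per cell cannot be told apart.

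MiR-709 was the brightest of the 3, and its level varied least. Its geometric mean scanner intensity over 5 spots was 40304, 38228 and 41682 in treated replicates 1, 2 and 3, against 47333, 22188 and 18773 in control replicates 1, 2 and 3. The 3 treated samples lay close together and within the range of the controls. The brightest single spot of miR-709 read 50209, and no spot on any array exceeded 59306. The spot tables carry no saturation flag. The probe ranked between 2nd and 6th of 599 in each sample, at 83.3 to 1212 times the median empty spot. That empty spot read 34.4 to 51.2 in the Cy5 samples and 219 to 459 in the Cy3 samples, so multiples of it are not comparable between dyes. Quantile normalisation gives probes of equal rank the same value. After it, the log2 intensity of miR-709 was 14.89, 14.89 and 15.36 in treated samples and 15.25, 14.89 and 15.25 in control samples. Each group thus reached the same lowest value, 14.89, and the groups overlapped. By mean level it stood 4th, between let-7c (15.12) and let-7d (15.01), with miR-709 itself at 15.09.

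MiR-805 was intermediate in brightness. Its scanner intensity was 10204, 8266 and 6065 in treated replicates 1, 2 and 3, and 22375, 8616 and 3753 in control replicates 1, 2 and 3. The controls spanned 5.96-fold and enclosed all 3 treated samples. Its log2 normalised intensity was 12.89, 12.89 and 12.41 in treated samples, against 13.98, 14.08 and 11.20 in control samples. Control replicates 1 and 2 were thus the highest of the 6, at ranks 12 and 11 of 599, and control replicate 3 the lowest, at rank 40, with the treated samples between them at ranks 24 to 27. Its mean level placed it 23rd, between miR-192 (12.93), which tubule epithelium expresses strongly, and miR-125a-5p (12.81).

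MiR-690 varied most on the scanner scale. Its intensity was 1178, 2149 and 1671 in treated replicates 1, 2 and 3, and 3889, 239 and 7764 in control replicates 1, 2 and 3. The controls spanned 32.5-fold in scanner intensity, without correction for background or dye, and 3.34 in log2 units after normalisation. Control replicate 2, stained with Cy5, stood at 4.67 times its own median empty spot of 51.2. Control replicate 3, stained with Cy3, stood at 35.5 times its own of 219. The log2 normalised intensity was 10.20, 10.78 and 10.68 in treated samples, against 10.97, 9.55 and 12.89 in control samples, which again enclosed the treated values. On the normalised scale control replicate 3 was highest for miR-690 and lowest for miR-805, and control replicate 2 was lowest for miR-690 and highest for miR-805. By mean level miR-690 stood 46th, between miR-199a-3p (10.97) and miR-92a (10.69).

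**Figure D1:**
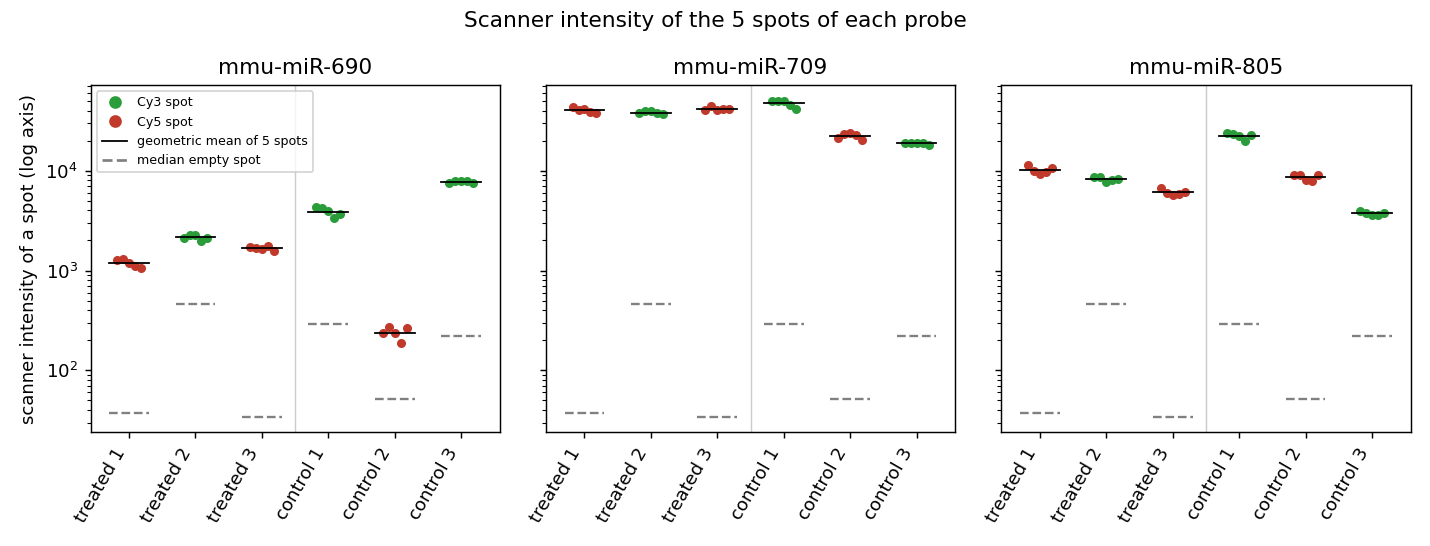
Scanner intensity (log axis) of the 5 spots of each probe in the 3 treated and 3 control samples, coloured by dye, with the geometric mean of the spots as a black line and the median empty spot of the sample as a dashed line. MiR-709 stays between 18773 and 47333, and the control values of miR-690 run between 239 and 7764 while its treated values stay between 1178 and 2149.

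The 5 spots of a probe within a sample lay close together. The coefficient of variation over the 5 spots ran from 2.20% to 8.07% for miR-709, from 3.49% to 7.89% for miR-805 and from 2.53% to 13.5% for miR-690, the highest being that of control replicate 2, whose spots read 190 to 274. The brightest and dimmest spot of a probe in a sample differed by at most 1.44-fold.

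In the deposited processed table, whose scale and centring are not given in the sources used here, MiR-709 stood at 31428, 33696 and 39984 in treated samples and 40170, 29371 and 30518 in control samples. Its highest sample there was control replicate 1, whereas treated replicate 3 was highest on the normalised scale, and its treated minus control difference on the log2 scale turned to 0.11. MiR-805 stood at 8437, 7578 and 5544 in treated samples and 15864, 18085 and 3581 in control samples. MiR-690 stood at 1008, 1585 and 1421 in treated samples and 2059, 715 and 5777 in control samples. For each of the 3 the treated values lay within the range of the control values in that table.

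None of the 3 probes passed the test between treated and control mice. In limma with a term for the dye, the treated minus control difference on the log2 normalised scale was -0.13 for miR-690 (SE 0.71, 95% interval -1.89 to 1.64), -0.06 for miR-709 (SE 0.27, -0.73 to 0.61) and -0.57 for miR-805 (SE 0.85, -2.69 to 1.55). The adjusted p was 0.995 for each, from limma with Benjamini-Hochberg adjustment over all 197 tested probes. Of these 197, 0 were called in either direction (0%), and 1 had an unadjusted p under 0.05 (0.508%). The groups overlapped for all 3 probes, while they did not overlap for 9 of the 197 (4.57%). Expressed as a fold, the interval for miR-709 ran from 0.603 to 1.52. It stayed within a 2-fold change either way under 13 of 19 other processing choices, and reached past it under 75th percentile scaling, plain background subtraction, no normalisation, and without treated replicate 2, treated replicate 3 or control replicate 2. The intervals for miR-690 (0.269 to 3.12) and miR-805 (0.155 to 2.93) include changes of 2-fold or more in both directions.

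**Figure D2:**
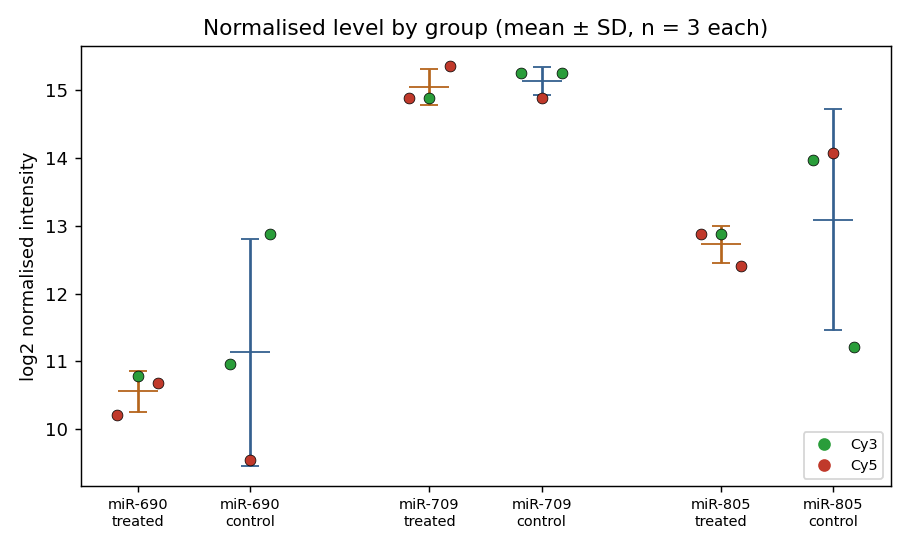
Log2 normalised intensity of the 3 probes in treated and control samples, each point a mouse coloured by dye, with the mean and SD of each group (n = 3). The treated points of miR-690 and miR-805 lie inside the spread of the control points, and both groups of miR-709 lie between 14.89 and 15.36.

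On the normalised scale the control samples of miR-690 and miR-805 were more widely spread than the treated samples. MiR-690 averaged 10.55 ± 0.31 in treated and 11.13 ± 1.68 in control samples (SD, n = 3 each). MiR-805 averaged 12.73 ± 0.28 in treated and 13.09 ± 1.63 in control samples, and miR-709 15.05 ± 0.27 in treated and 15.13 ± 0.21 in control samples. Among the 197 tested probes the SD over control samples ranked 9th for miR-690, 10th for miR-805 and 154th for miR-709. The median tested probe had an SD of 0.26 in treated and 0.38 in control samples, and 142 of the 197 (72.1%) were wider in controls. Off the normalised scale miR-709 was wider in controls as well. Its SD without normalisation between samples was 0.07 in treated and 0.71 in control samples. In the deposited processed values, on the log2 scale, it was 0.18 and 0.25. A difference in spread between the groups was not tested.

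Pairs of samples with the same replicate number did not share a direction for any of the 3. Treated minus control was -0.77, 1.23 and -2.20 for miR-690 in pairs 1, 2 and 3. It was -0.36, 0 and 0.11 for miR-709, and -1.09, -1.20 and 1.20 for miR-805. With a replicate block and the dye in the model, the differences were the same, the SE was 0.33 for miR-690, 0.19 for miR-709 and 0.48 for miR-805, and the limma adjusted p was 0.990, 0.991 and 0.810, with 15 of the 197 probes at an unadjusted p under 0.05 and 0 called. The paired fit had 1 residual degree of freedom per probe.

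The sign of each difference rested on single samples. For miR-690 it turned to 0.94 without treated replicate 2 and to 0.43 without control replicate 3, and it was -1.11 without control replicate 2. For miR-805 it turned to 0.30 without control replicate 2, and it was -1.41 without treated replicate 2, -1.38 without control replicate 3 and -0.13 without control replicate 1. For miR-709 it turned to 0.23 without treated replicate 2. The interval for miR-805 without control replicate 3, its lowest sample, ran from -2.14 to -0.63, so both ends were negative. In limma its unadjusted p was 0.0079 and its adjusted p 0.9997, so it was not called. Leaving out treated replicate 2 leaves Cy5 as the dye that holds both groups, with control replicate 2 as its single control. Leaving out control replicate 2 leaves Cy3 as that dye, with treated replicate 2 as its single treated sample. Without scaling between samples the median of all tested probes moved to 0.29, where miR-690 differed by 0.47, miR-709 by 0.62 and miR-805 by -0.15.

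**Figure D3:**
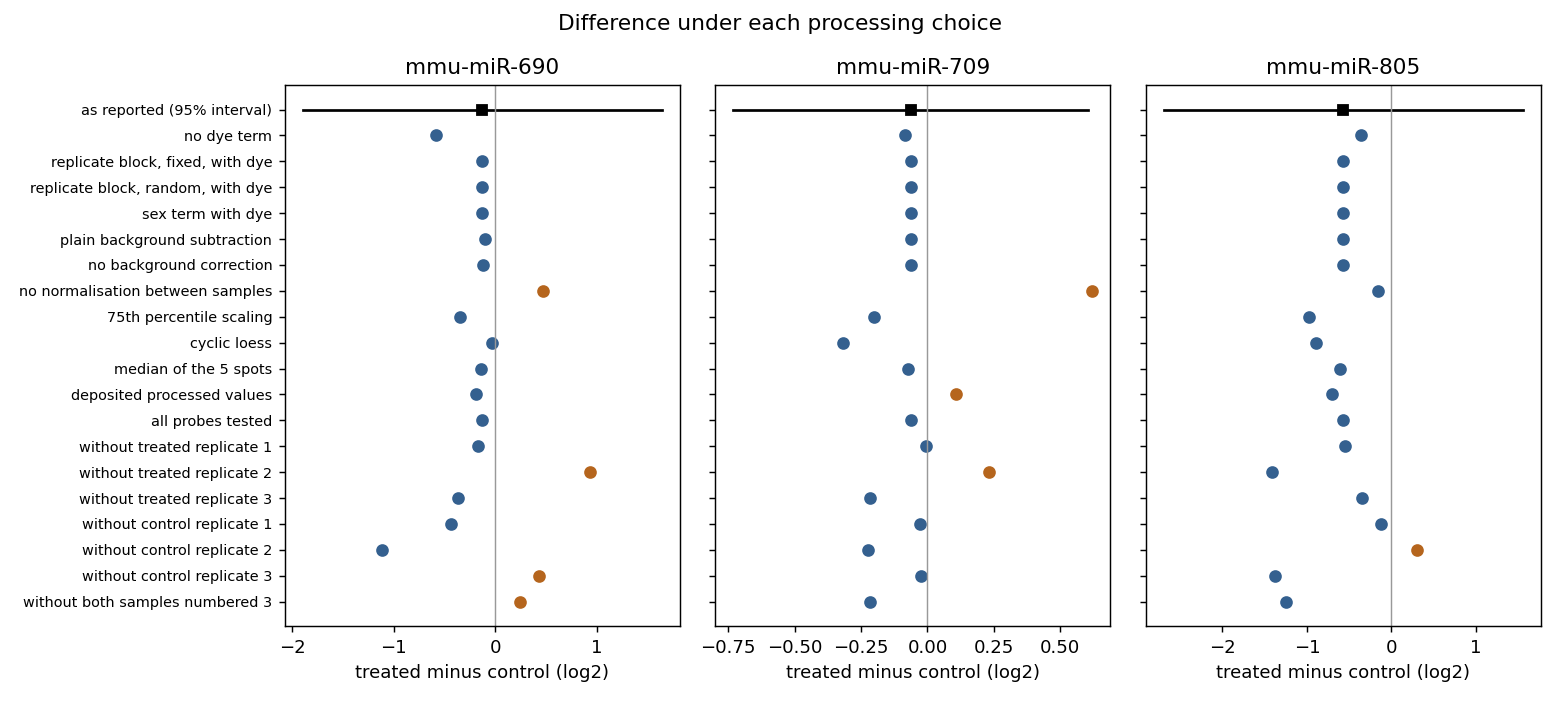
Treated minus control difference (log2) of each probe as reported, with its 95% interval, and under each of 19 other processing choices, with points above 0 in brown and below 0 in blue. Points of each probe fall on both sides of 0, and all but 1 of them lie within the interval of the reported fit.

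Within each dye the differences had opposite signs. The treated minus control difference of miR-690 was -1.15 within Cy3 and 0.90 within Cy5, that of miR-709 -0.36 within Cy3 and 0.23 within Cy5, and that of miR-805 0.29 within Cy3 and -1.44 within Cy5. Each dye held 3 samples, so that 1 sample stood for treated mice in Cy3 and 1 for control mice in Cy5. In limma with a group by dye term, the gap between the within-dye differences had an adjusted p of 0.543 for miR-690, 0.555 for miR-709 and 0.641 for miR-805. The dye difference itself passed the test for none of the 3: Cy5 minus Cy3 was -1.36 for miR-690 (SE 0.71, unadjusted p = 0.107), -0.06 for miR-709 (SE 0.27) and 0.63 for miR-805 (SE 0.85), with an adjusted p of 0.991 each. Of the 197 probes 0 were called for the dye (0%), and 4 had an unadjusted p under 0.05 (2.03%).

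The array also carries 5 probes for 5S ribosomal RNA, a structural RNA of the ribosome that is no miRNA, and their signal in the same samples is given. Whether that signal follows the level of 5S RNA in the cortex was not tested, as the RNA had been size-fractionated. The 5S probe b2 read 3390, 7947 and 4991 in treated replicates 1, 2 and 3, against 11464, 1596 and 15097 in control replicates 1, 2 and 3. Probe b5 read 11444, 11629 and 13077 in treated samples and 16958, 2006 and 23111 in control samples. All 5 were lowest in control replicate 2, and 4 of the 5 were highest in control replicate 3, as was miR-690. Before normalisation between samples, the log2 mean of all tested probes was also lowest in control replicate 2, at -1.11 from its own mean. So the low point in that sample was not particular to miR-690 and the 5S probes. That mean was highest in control replicate 1 (0.84), with control replicate 3 at 0.25. MiR-805 and miR-709 were instead lowest in control replicate 3 on the scanner scale. Spike-in calibration probes moved as well, the probe PUC2PM-20B reading 24751, 20005 and 27509 in treated samples and 22116, 9504 and 37503 in control samples. Of the 7 spike-in probes that stood over 10 times above the median empty spot in every sample, 6 were lowest in control replicate 2 and 4 were highest in control replicate 3. The probe PUC2PM was highest in control replicate 1 instead, at 17993, 19597 and 16742 in treated samples and 23152, 11166 and 12175 in control samples. The part of these shifts in the levels of miR-690 was not tested.

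**Figure D4:**
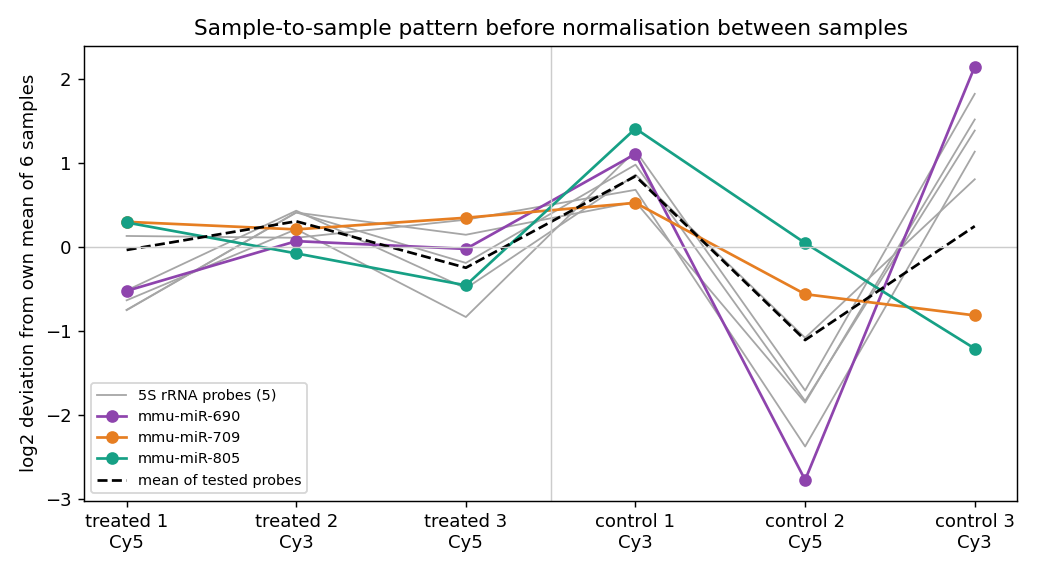
Log2 intensity of each probe in each sample as its deviation from the probe's own mean over 6 samples, before normalisation between samples, for the 3 probes, the 5 probes of 5S ribosomal RNA (grey) and the mean of the 197 tested probes (dashed). In control replicate 2 miR-690 lay at -2.77 and in control replicate 3 at 2.15, beyond all 5 grey lines and on the same side of 0 as they were, whereas miR-709 (-0.82) and miR-805 (-1.21) lay below their own means in control replicate 3. The mean of the tested probes lay at -1.11 in control replicate 2 and at 0.25 in control replicate 3.

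The probes most like each of the 3 over the 6 samples were found by Pearson's r of log2 normalised intensity among the 196 other tested probes, as a description. For miR-690 they were miR-30a (r = 0.975), miR-30e (0.960) and miR-31 (0.940), a dim probe, all of which were highest in control replicate 3. By Spearman's rho, which uses ranks only, these stood at 0.853, 0.714 and 0.543. MiR-30a, an abundant miRNA of renal epithelium, stood at 11.79, 11.79 and 12.23 in treated samples and 12.23, 11.33 and 13.75 in control samples. For miR-805 they were miR-146a (0.942), miR-200b* (0.942) and miR-193* (0.937), a dim probe at 6.46 to 6.84, all of which were lowest in control replicate 3. Their rho was 0.899, 0.986 and 0.971. MiR-200b*, the passenger strand of an epithelial miRNA, stood at 8.36, 8.42 and 7.73 in treated samples and 8.52, 8.78 and 7.25 in control samples. For miR-709 they were miR-378 (0.889), miR-872 (0.876) and miR-20b (0.875), with a rho of 0.833, 0.741 and 0.833. Values of r over 0.8 were reached by 24 probes for miR-690, 18 for miR-805 and 12 for miR-709, and values under -0.8 by 28 probes for miR-690, 33 for miR-805 and 9 for miR-709. All of these probes share the same 6 samples. Such counts were not taken for the other tested probes, so these cannot be called high or low.

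MiR-690 and miR-709 belong to a block of mouse names, miR-680 to miR-721 with 44 probes on the array. Of the 44, 33 (75%) lay above background in no sample, against 59.1% of all 599 probes, and 4 lay above background in all 6. The 3 brightest were miR-709, miR-690 and miR-705. MiR-705 stood at 10.84, 10.64 and 9.75 in treated samples and 11.33, 10.64 and 10.64 in control samples, and the groups overlapped. The fourth was miR-720, known as a fragment of transfer RNA, at 8.89 ± 0.20 in treated and 8.75 ± 0.19 in control samples (SD, n = 3 each). Of the 9 tested probes of the block 5 differed above 0 and 4 below, with a median of 0.01, beside -0.01 for all 197, and 0 were called in limma.

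**Figure D5:**
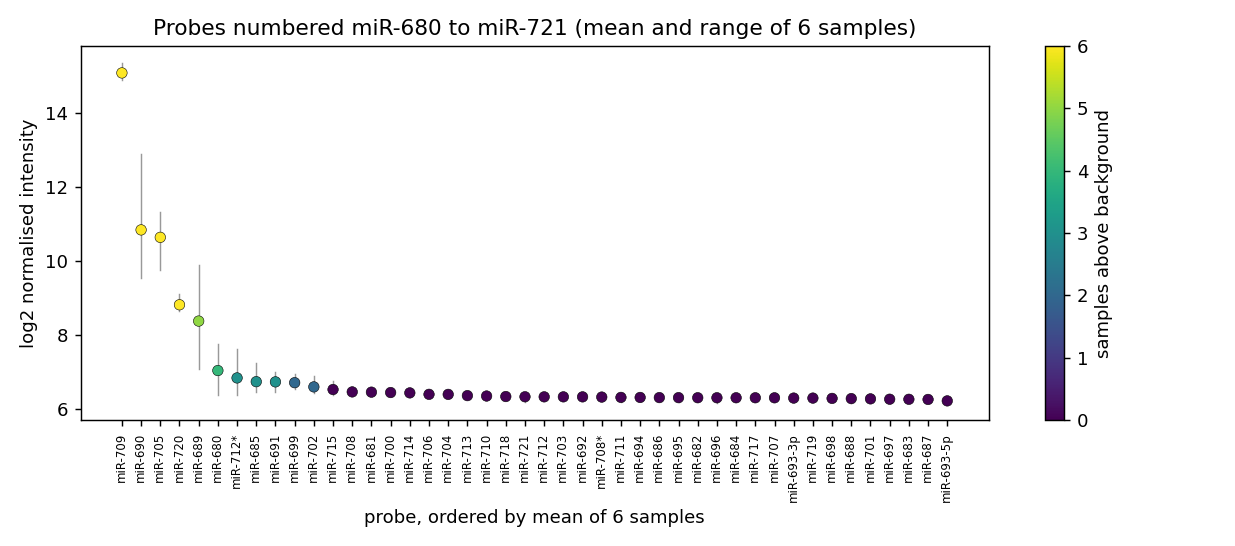
Mean log2 normalised intensity of the 44 probes named miR-680 to miR-721, ordered by mean, with the range over 6 samples as a line and the number of samples above background as colour. MiR-709 (15.09) stands apart from miR-690 (10.84) and miR-705 (10.64), and 33 probes at the dim end lay above background in no sample.

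MiR-805 was 1 of 18 array names that were not matched by name to a miRNA of the RefSeq table. Of these, 6 were tested and 11 lay above background in no sample (61.1%, beside 59.1% of all probes). MiR-805 was the brightest, and miR-720 and miR-1196 followed. MiR-1196 stood at 7.87, 9.27 and 8.36 in treated samples and 8.36, 9.10 and 7.76 in control samples, and the groups overlapped. The 6 tested probes had a median difference of 0.13 (4 above 0 and 2 below), beside -0.01 for all tested probes, and 0 were called in limma.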

How the data were processed

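Total RNA of kidney cortex was size-fractionated, tailed with poly(A), tagged and stained with Cy3 or Cy5 by a service provider, per the labels' protocols. The deposited spot tables hold the mean intensity of 3968 spots per sample on a linear scale, 5 for each miRNA probe, with 669 empty spots and control probes, and the background had not been subtracted. A deposited table of 599 miRNAs holds the authors' processed intensity, made in a way that the sources used here do not give. It served as an alternative, as log2 of value plus 16.

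In R 4.3.3 with limma 3.58.1, spot intensity was corrected with normexp (offset 50), averaged as log2 over the 5 spots and quantile-normalised over all 599 probes. Probes above background in at least 3 of 6 samples were tested with lmFit and eBayes (two-sided) on group and dye, and called at an adjusted p under 0.05. The pipeline was tested on simulated data. The simulated errors were independent between samples and smaller than the residual SD of miR-690 (1.06) and miR-805 (1.29). So the simulation does not show how the fit performs for these probes. The number of arrays limits the precision. Around the group means, treated and control samples of the same number correlated at 0.447, 0.460 and 0.781 (Pearson's r over tested probes), each above 0.1. Samples of unlike number correlated at 0.256 (treated 2 with control 1) and 0.246 (treated 1 with control 2), and otherwise at -0.572 to -0.452. The reported fit holds no pairs, and the numbers were taken as pairs only in the replicate blocks given beside it. The numbers are those of the sample titles, and samples of the same number carried opposite dyes. The labels do not say whether such samples were paired or shared an array. With the number as a random block the consensus correlation was 0.764, whereas the reported fit treats the 6 samples as independent.

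The probes named are the 3 members, the 3 most correlated with each, their neighbours in brightness and the 3 brightest of each list, with miR-720 and the other values of a list named after they were seen. Among the 5S and spike-in probes, those given with values were also picked after they were seen. Members and lists were chosen with earlier results of these data known. Sequences are from the spot tables and from RefSeq, to which 581 of 599 array names matched. That match was by name and not by sequence, and it includes miR-709. The submitters' build is not given here.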

Additional observations from a re-analysis of the deposited data

Results flagged for a closer look

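The treated minus control difference of miR-690 ran in opposite directions in the 2 dyes: every treated sample lay below every control sample within Cy3 (-1.15) and above within Cy5 (0.90). In limma with a group by dye term the gap between these differences, Cy5 minus Cy3, was 2.04 (SE 1.27, unadjusted p = 0.185, adjusted p = 0.543 over the 197 tested probes). In that fit 18 of the 197 had an unadjusted p under 0.05, and 0 were called. MiR-690 was flagged on these same values, so this p adds no separate support.

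The treated minus control difference of miR-805 ran in opposite directions in the 2 sexes: the treated female lay above the control female (1.68), and both treated males lay below both control males (-1.38). In limma with a group by sex term beside the dye, the gap between female and male differences was 3.25 (SE 0.58, unadjusted p = 0.0150, adjusted p = 0.501). In that fit 18 of the 197 tested probes had an unadjusted p under 0.05, and 0 were called. MiR-805 was flagged on these same values, so this p adds no separate support. The fit with the sex term left 1 residual degree of freedom, each group held 1 female, and the treated female was also the oldest mouse. The treated female carried Cy5 and the control female Cy3, so treatment and dye cannot be told apart in the difference of 1.68.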

How the results depend on the processing

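No call was made for any of the 3 probes, and 0 of the 197 tested probes were called, under any of the 19 alternatives, of which leaving out both samples numbered 3 was chosen after seeing the data. By construction 4 of the 19 (both replicate blocks, the sex term and testing all probes) left the treated minus control estimate as it was, and over the other 15 it kept its sign in 11 for miR-690, 12 for miR-709 and 14 for miR-805. Without normalisation between samples it turned to 0.47 for miR-690 and 0.62 for miR-709, and with the deposited processed values to 0.11 for miR-709. Leaving out 1 sample gave -1.11 to 0.94 for miR-690, -0.22 to 0.23 for miR-709 and -1.41 to 0.30 for miR-805. Without both samples numbered 3 the difference turned to 0.24 for miR-690. For miR-805 it was then -1.24, with an interval of -1.75 to -0.74. That interval of miR-805 and its interval without control replicate 3 left out 0. Under all other settings the treated minus control interval of each of the 3 probes included 0. The Cy5 minus Cy3 difference turned to 0.94 under 75th percentile scaling and 0.16 with cyclic loess for miR-709, and to -0.030 without normalisation for miR-805. Leaving out 1 sample gave -2.44 to -0.35 for miR-690, -0.35 to 0.16 for miR-709 and -0.22 to 1.497 for miR-805. The causes were not tested. The median difference of all tested probes was -0.53 under 75th percentile scaling, where miR-690 stood at -0.35, miR-709 at -0.20 and miR-805 at -0.97. It was 0.01 with cyclic loess, where they stood at -0.03, -0.32 and -0.89. The replicate block changed no call, with a smallest adjusted p of 0.287 as a fixed term and 0.175 as a random one. At 4.67 times the empty spots, miR-690 in control replicate 2 is the value nearest to background, with treated replicate 2 beside it at 4.68 times.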
